A study of Mus musculus with 9 samples.

Results

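The collagen genes of the mouse colon were followed by class through dextran sulfate sodium (DSS) colitis and carbon dot treatment. Members were all genes of the deposited table whose symbol is Col, a type number, a and a chain number, which gave 44 of 21959 genes, on 15 chromosomes. They fall into 11 fibrillar, 6 basement membrane, 9 FACIT (fibril-associated collagens with interrupted triple helices), 6 beaded filament, 1 anchoring and 4 transmembrane collagen genes. Another 7 belong to none of these 6 classes and are given as multiplexin (2), short-chain network (3) and other (2) collagens. The libraries were made from poly-A RNA of colon tissue of wild-type mice: 3 mice given DSS together with lotus node charcoal carbon dots (CDs), 3 given DSS alone (Model) and 3 untreated (Blank). DSS is a polymer that injures the colon lining, and carbon dots are nanometre-sized carbon particles. All groups were labelled WT. Ages, doses and days were not given in the sources used here.

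Collagens are triple helices of 3 alpha chains, each chain the product of its own gene. Fibrillar collagens form the cables that give the submucosa and lamina propria their tensile strength. FACITs coat those cables, type VI collagen forms beaded microfilaments around cells, and type IV collagen forms the sheet-like network of basement membranes under epithelium and around vessels, muscle and nerve. Type VII collagen anchors epithelial basement membranes to the stroma, and transmembrane collagens sit in the plasma membrane. In the gut most fibrillar chains are made by fibroblasts and smooth muscle cells, and type IV chains also by endothelium and other cells that rest on a basement membrane. In bulk tissue, fewer cells of a type and less RNA per cell cannot be told apart.

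Total counts ran from 13868864 to 19940300 reads per library, with reads for 16612 to 17120 genes. Zero reads in a library allow a level of up to 3 reads, or 0.150 to 0.216 CPM (reads scaled to library size), counting error alone considered. Epithelial markers of colon (Epcam, Cdx1, Cdx2 and Krt18 among 12 listed) were present in all 9 libraries. Some libraries also held transcripts of other organs. Pancreatic acinar markers took 6.61% of the reads of Model 3, 0.793% of Model 1, 0.0335% of CDs 1 and at most 0.00196% of any other library. Pbsn, a prostate gene, was at 955 FPKM in Blank 2 and 122 FPKM in Blank 3 and at most 0.278 FPKM in the other libraries. All 8 listed prostate and seminal vesicle genes together took 0.157% of the reads of Blank 2 and 0.0286% of Blank 3. They took 0.00806% to 0.0289% in the other libraries. Blank 2 and Blank 3 are named below as libraries with prostate transcripts by Pbsn alone. FPKM, the count scaled to gene length and library total, is the level scale used throughout.

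Collagen transcripts took 0.838% ± 0.0892 of the counted reads in CDs, 1.15% ± 0.414 in Model and 0.289% ± 0.0123 in Blank (SD, n = 3 each). The summed FPKM of the 44 genes was 1110, 1026 and 900 in CDs 1 to 3, 893, 1896 and 1374 in Model 1 to 3 and 352, 372 and 343 in Blank 1 to 3. Both DSS-treated groups lay above Blank without overlap, while the CDs sums lay inside the range of the Model sums. Col3a1 was the most abundant collagen transcript in every group. The 5 highest genes held 64.0% to 65.4% of collagen FPKM in the CDs libraries, 63.8% to 66.7% in the Model libraries and 58.7% to 60.6% in the Blank libraries. Those 5 were Col3a1, Col4a1, Col6a1, Col1a1 and either Col1a2 (CDs and Blank) or Col4a2 (Model). At the other end, Col2a1, Col9a1, Col10a1, Col19a1 and Col26a1 never exceeded 13 reads in a library and did not pass the expression filter, so 39 members were tested. Col2a1, the main chain of cartilage, had at most 1 read in any library.

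**Figure D1:**
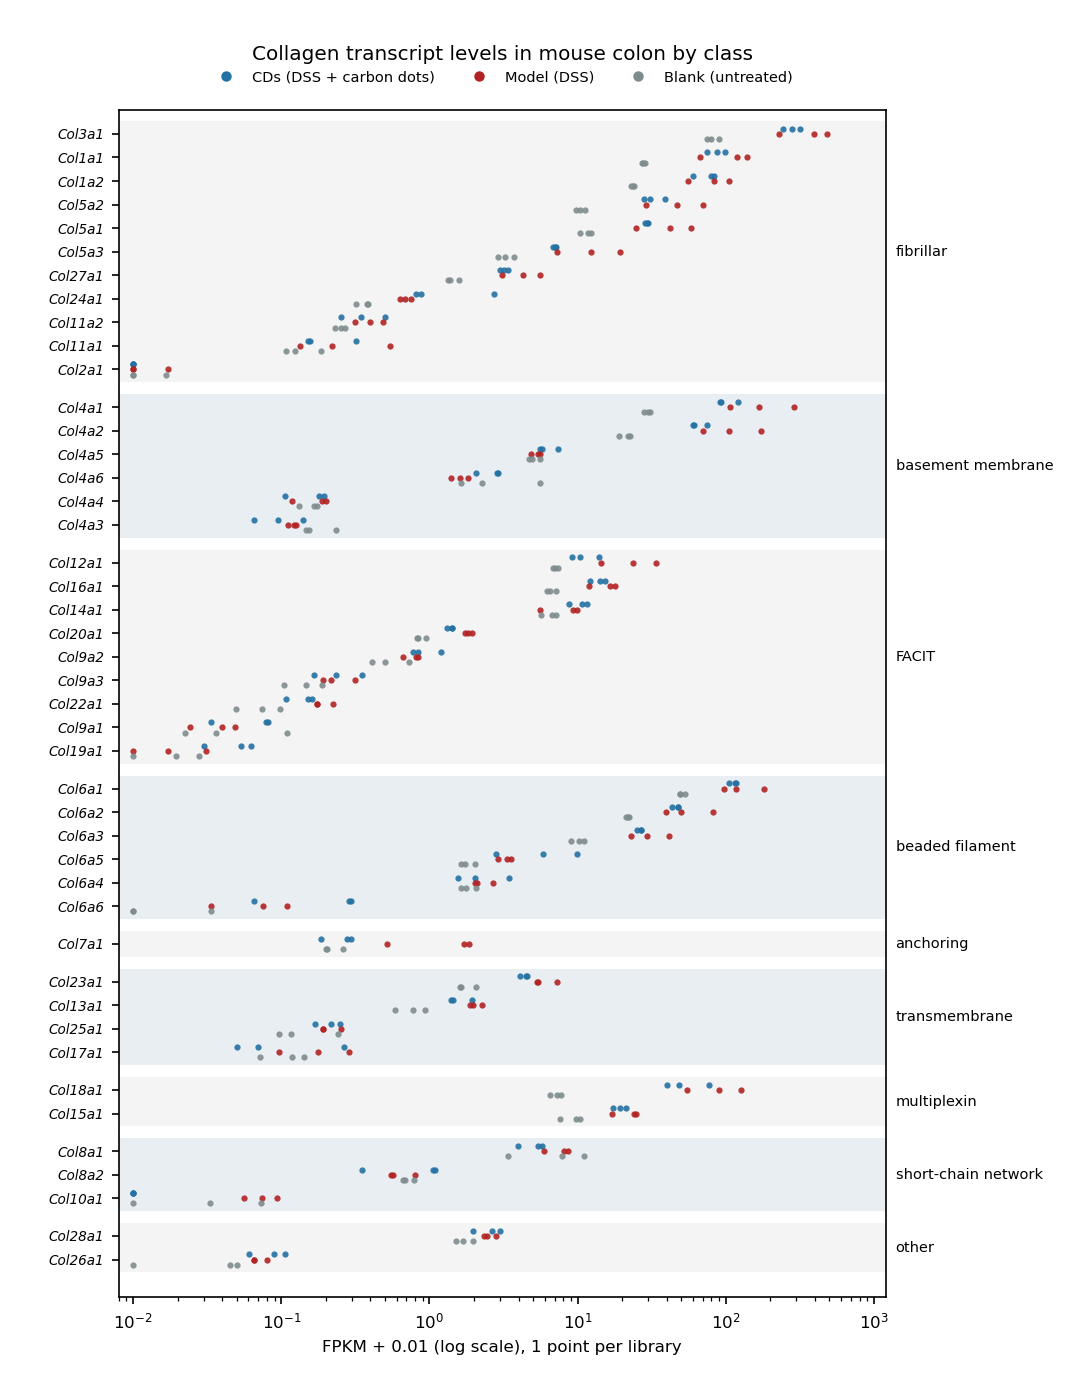
FPKM plus 0.01 on a log axis for each of the 44 collagen genes, 1 point per library, grouped by class with CDs above Model above Blank within each gene. Levels span from genes with at most 1 read (Col2a1) to Col3a1 at 481 FPKM in Model 2, and Col3a1, Col1a1, Col4a1, Col4a2 and Col6a1 are lower in every Blank library than in any other.

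Several collagen genes lie next to one another in the genome, and the windows around the starts of Col4a1 and Col4a2 are shown because this head-to-head pair had the highest type IV levels. Col4a4 and Col4a3, of low level, also lie head to head, with 71 bases between their deposited spans. Sequences are from RefSeq on GRCm38.p6, from 250 bases before to 50 after each annotated start, and 35 of the 44 members were in that table with 38 windows. The deposited gene positions carry no build and are not on that one. Col4a1 (chr8:11312777-11313076, minus strand) and Col4a2 (chr8:11312555-11312854, plus strand) face away from each other, and their windows share 78 bases, in capitals, read from opposite strands.
Col4a1: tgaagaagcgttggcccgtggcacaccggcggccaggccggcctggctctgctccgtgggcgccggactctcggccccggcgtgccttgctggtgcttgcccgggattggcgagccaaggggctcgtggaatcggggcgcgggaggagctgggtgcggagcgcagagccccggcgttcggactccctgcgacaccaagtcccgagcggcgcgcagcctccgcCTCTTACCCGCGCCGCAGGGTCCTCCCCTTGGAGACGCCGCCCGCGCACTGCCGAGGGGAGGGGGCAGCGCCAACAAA
Col4a2: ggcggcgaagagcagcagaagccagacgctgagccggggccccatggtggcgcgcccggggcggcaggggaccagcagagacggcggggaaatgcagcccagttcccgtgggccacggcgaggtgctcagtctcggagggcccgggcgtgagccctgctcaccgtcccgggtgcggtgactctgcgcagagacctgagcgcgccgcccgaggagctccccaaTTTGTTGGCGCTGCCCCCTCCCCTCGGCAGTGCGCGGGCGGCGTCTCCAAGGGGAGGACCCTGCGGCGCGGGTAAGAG
The window of Col1a2 (chr6:4505368-4505667, plus strand), a chain of type I collagen, holds CCAAT or its reverse complement ATTGG at 2 places, in capitals. The window of Col3a1 (chr1:45311288-45311587, plus strand), the most abundant member, holds TATAAA once, in capitals.
Col1a2: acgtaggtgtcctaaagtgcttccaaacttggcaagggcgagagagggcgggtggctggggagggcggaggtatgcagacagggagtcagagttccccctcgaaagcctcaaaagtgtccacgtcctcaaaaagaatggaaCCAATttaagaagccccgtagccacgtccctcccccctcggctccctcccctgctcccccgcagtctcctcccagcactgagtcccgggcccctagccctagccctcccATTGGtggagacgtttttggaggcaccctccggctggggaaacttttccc
Col3a1: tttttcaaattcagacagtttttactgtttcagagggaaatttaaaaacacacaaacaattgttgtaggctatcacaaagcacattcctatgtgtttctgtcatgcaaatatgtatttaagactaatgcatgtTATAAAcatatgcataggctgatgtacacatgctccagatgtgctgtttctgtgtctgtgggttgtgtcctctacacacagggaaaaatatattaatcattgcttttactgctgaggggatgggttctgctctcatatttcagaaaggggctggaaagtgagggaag
Col18a1, the member with the largest fold change between Model and Blank, has 2 annotated starts on the minus strand, 52825 bases apart. Both windows are shown with GGGCGG or its reverse complement CCGCCC in capitals (none at chr10:77113656-77113955, and 3 at chr10:77166481-77166780). The counts are per gene and do not separate the starts.
Col18a1, first window: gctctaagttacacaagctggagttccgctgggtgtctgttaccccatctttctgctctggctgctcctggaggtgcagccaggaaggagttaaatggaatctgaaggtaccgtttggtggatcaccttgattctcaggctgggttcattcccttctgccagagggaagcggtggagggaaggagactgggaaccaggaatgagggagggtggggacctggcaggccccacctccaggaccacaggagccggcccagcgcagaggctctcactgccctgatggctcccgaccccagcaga
Col18a1, second window: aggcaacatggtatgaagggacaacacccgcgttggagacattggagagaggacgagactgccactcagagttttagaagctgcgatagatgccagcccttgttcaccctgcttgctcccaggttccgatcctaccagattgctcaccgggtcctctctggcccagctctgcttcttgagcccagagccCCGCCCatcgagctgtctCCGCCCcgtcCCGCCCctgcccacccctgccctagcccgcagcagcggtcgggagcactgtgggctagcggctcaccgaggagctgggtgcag
Over all 38 member windows, searched on both strands, CCAAT was found in 13 (34.2%), beside 37.4% of all 32851 windows in the table. GGGCGG, the core of the GC box, was found in 23 (60.5%), beside 35.7% of all windows. TATAAA was found in 5 (13.2%), beside 13.6%. These are matches of letters and not binding sites.

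The first comparison, Model versus Blank, concerns which collagens differ in DSS-treated colon. Of the 39 collagen genes tested, 21 rose and none fell (edgeR quasi-likelihood test, adjusted p under 0.05). Across all 14921 genes tested, 24.5% were called higher and 19.6% lower. The 21 had log2 fold changes of 1.03 to 3.60 and adjusted p-values of 2.62e-04 to 0.0120. The median log2 fold change was 1.18 over the 39 collagens and -0.03 over all genes. Col4a6 was the single member lower at an unadjusted p under 0.05, beside 25% of all genes. DESeq2 called 1 member lower, also Col4a6, and 23 higher, beside 21.9% and 26.7% of all genes. In limma, with 1 added to FPKM, 22 members were higher and none lower, beside 23.3% of all genes higher. Without the libraries with the most pancreatic transcripts, edgeR had Model 2 as the only Model library and took the spread from the other groups. Without Blank 2 and Blank 3 it called 15, beside 7.88% of all genes. The groups did not overlap for 26 tested members, all higher in Model, and for 1 lower in Model, beside 32% and 26.7% of all genes. Model 2 had the highest FPKM of all 9 libraries for 20 of the 21 members called. Its summed neutrophil markers were 3610 FPKM, against 260 and 529 FPKM in Model 1 and Model 3, and their part in the collagen values was not tested.

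Markers of several cell types moved in this comparison, beside 24.5% of all genes higher and 19.6% lower. Of 12 fibroblast markers 10 rose, with a summed level of 929 to 1165 FPKM in Model and 388 to 515 FPKM in Blank. Most of the Model sums came from Ly6a, at 754, 653 and 558 FPKM in Model and 306, 195 and 186 FPKM in Blank. Of 10 endothelial markers 9 rose, with 89.6 to 129 FPKM in Model and 37.8 to 42.8 FPKM in Blank. Of 10 smooth muscle markers 2 rose, and their sums overlapped (897 to 1252 FPKM in Model and 954 to 1328 FPKM in Blank). Of 7 adipocyte markers 6 rose, with sums of 91.6 to 148 FPKM in Model and 13.7 to 37.3 FPKM in Blank. Of 12 colon epithelial markers 4 fell (Epcam, Cdx1, Cdx2 and Krt18). Among markers of enteric glia and Schwann cells, 5 of 9 were higher and 2 lower, with sums of 52.7 to 60.9 FPKM in Model and 78.7 to 82.9 FPKM in Blank. Mesothelial markers rose in 3 of 6 (Msln, Wt1 and Lrrn4), with sums of 372 to 722 FPKM in Model and 799 to 936 FPKM in Blank. Nearly all of these sums came from Krt19, at 716, 570 and 367 FPKM in Model and 934, 794 and 930 FPKM in Blank. Krt19 itself was not called. Monocyte and macrophage markers rose in 7 of 8, with 888 to 1143 FPKM in Model and 292 to 392 FPKM in Blank. The part of these cell types in the collagen values was not tested.

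**Figure D2:**
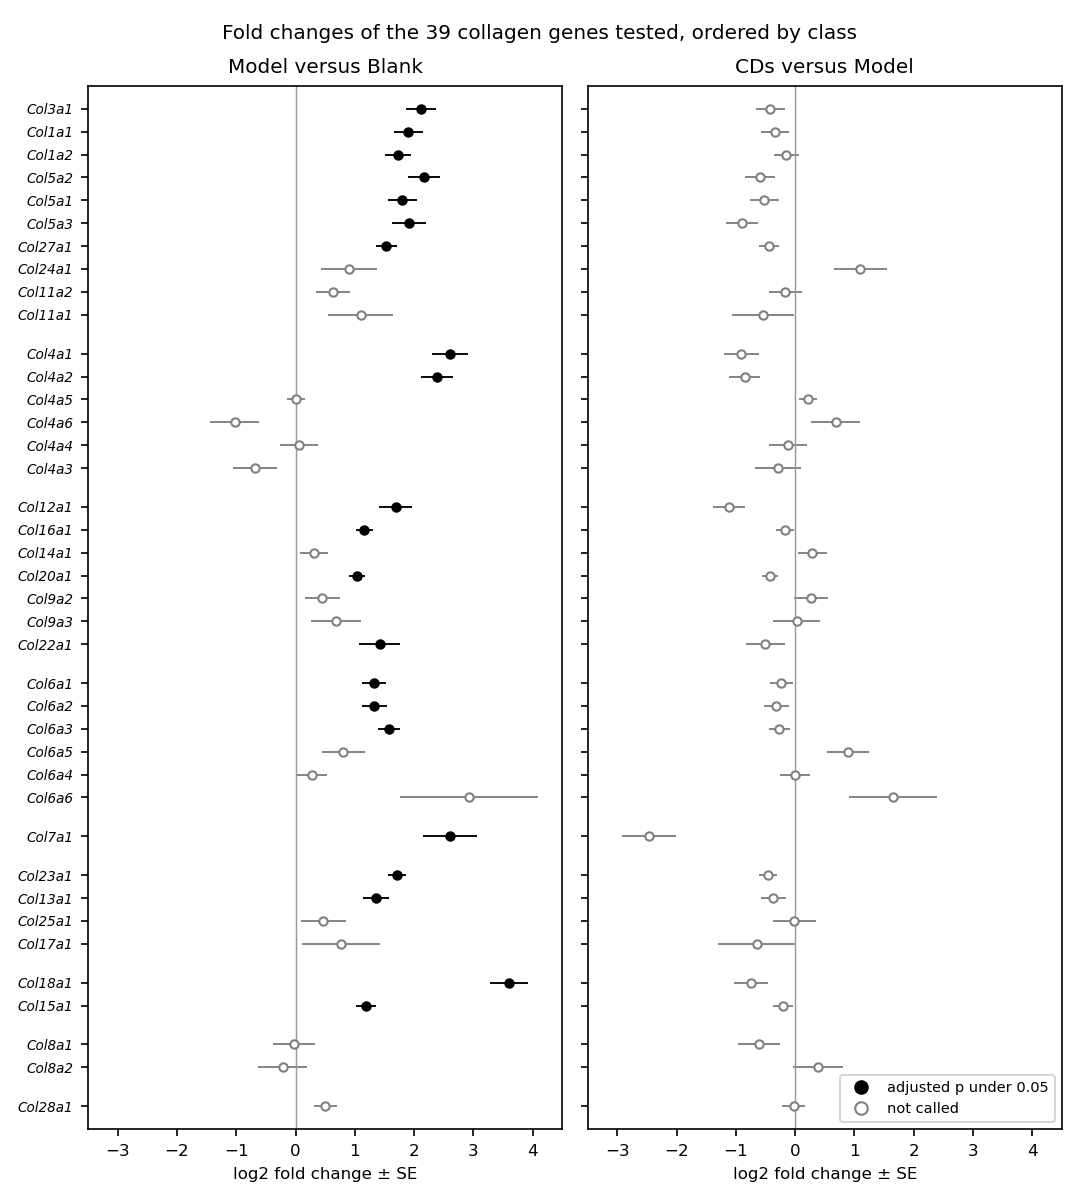
Log2 fold change with its standard error (SE) for the 39 collagen genes tested, ordered by class, in Model versus Blank (left) and CDs versus Model (right). Filled points have an edgeR adjusted p under 0.05, which 21 members reach on the left and none on the right.

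Fibrillar collagens rose in 7 of 10 tested members, with a median log2 fold change of 1.77. The 7 were both chains of type I (Col1a1, Col1a2), the type III chain Col3a1, the 3 type V chains and Col27a1, with log2 fold changes of 1.73 for Col1a2 and 1.53 for Col27a1. Col3a1 (ENSMUSG00000026043; deposited position chromosome 1, 45350698 to 45388866), which forms the thin fibrils of gut wall and vessels, was at 229, 481 and 394 FPKM in Model 1 to 3 and at 79.0, 89.6 and 74.4 FPKM in Blank 1 to 3. Every Model library was above every Blank library, at a log2 fold change of 2.12 ± 0.25 (SE; adjusted p = 4.80e-04 in edgeR). Col1a1, the main chain of the most abundant body collagen, was at 66.6, 140 and 119 FPKM in Model and at 27.5, 28.7 and 27.2 FPKM in Blank. The groups did not overlap, and its log2 fold change was 1.90 ± 0.24 (SE; adjusted p = 6.34e-04 in edgeR). The Col3a1 to Col1a1 ratio of FPKM was 3.39 ± 0.0714 in Model and 2.91 ± 0.198 in Blank (SD, n = 3 each), and the groups did not overlap. The fibrillar genes not called were Col11a1 (log2 fold change 1.10), Col24a1 (0.90) and Col11a2 (0.63), all below 1 FPKM in every Model and Blank library. Col11a1 was at 0.36 without Model 2, and without Model 1 it was called at 1.44 (adjusted p = 0.0448 in edgeR).

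Type V collagen, which sits inside type I fibrils and limits their width, rose in all 3 chains, at log2 fold changes of 1.80 for Col5a1, 2.16 for Col5a2 and 1.91 for Col5a3. Col5a3 was at 7.22, 19.3 and 12.3 FPKM in Model and at 3.24, 3.69 and 2.90 FPKM in Blank. Again no Model library reached down to the Blank range. Fibrillar genes made up 48.1% ± 2.69 of collagen FPKM in Model and 44.8% ± 1.19 in Blank (SD, n = 3 each).

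The 6 type IV genes split by chain. Col4a1 and Col4a2, which together form the network found in nearly every basement membrane, rose, while none of Col4a3, Col4a4, Col4a5 and Col4a6, the chains of more restricted membranes, was called. Col4a1 (ENSMUSG00000031502; chromosome 8, 11248423 to 11362826, minus strand) was at 107, 290 and 168 FPKM in Model and at 30.6, 30.1 and 28.1 FPKM in Blank. Its log2 fold change was 2.60 ± 0.30 (SE; adjusted p = 4.67e-04 in edgeR). Col4a2 (ENSMUSG00000031503; chromosome 8, 11362805 to 11499287, plus strand) was at 70.3, 173 and 105 FPKM in Model and at 22.7, 21.8 and 19.2 FPKM in Blank, with a log2 fold change of 2.38 ± 0.27 (SE; adjusted p = 4.44e-04 in edgeR). Both genes were above Blank in all 3 Model libraries. Their deposited spans overlap by 22 bases on opposite strands, and whether reads were counted by strand is not known here, so reads in those bases are uncertain.

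Col4a5 was at 5.53, 4.87 and 5.41 FPKM in Model and at 4.73, 5.61 and 4.89 FPKM in Blank, and the groups overlapped (log2 fold change 0.00 ± 0.15 SE; adjusted p = 0.989 in edgeR). The Col4a5 to Col4a1 ratio was 0.0335 ± 0.0174 in Model and 0.172 ± 0.0162 in Blank (SD, n = 3 each), without overlap. Col4a6 was at 1.81, 1.39 and 1.59 FPKM in Model and at 1.63, 5.53 and 2.24 FPKM in Blank, a log2 fold change of -1.03 ± 0.41 (SE; adjusted p = 0.0716 in edgeR). Blank 2, the library with the most prostate transcripts, was the highest of the 9 for Col4a6, and without it the log2 fold change was -0.31. The part of that tissue was not tested. Col4a3 had 16 to 20 reads per library in Model and 19 to 34 in Blank, a log2 fold change of -0.69 (adjusted p = 0.157 in edgeR). Col4a4 had 16 to 40 reads in Model and 18 to 28 in Blank, with a log2 fold change of 0.05 (adjusted p = 0.906 in edgeR). Type IV genes held 21.97% ± 2.40 of collagen FPKM in Model and 16.7% ± 0.641 in Blank (SD, n = 3 each).

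**Figure D3:**
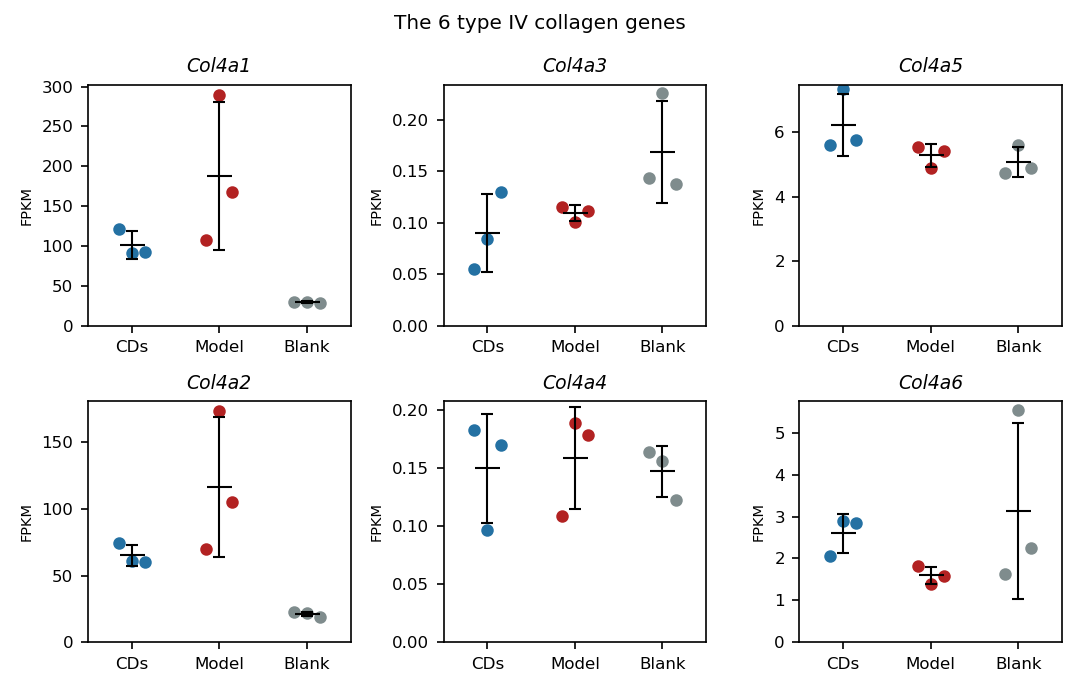
FPKM of the 6 type IV collagen genes by library, with CDs left of Model left of Blank; horizontal marks are means and bars are SD (n = 3 each). Col4a1 and Col4a2 stand above Blank in all 6 DSS-treated libraries, while Col4a5 lies between 4.73 and 7.33 FPKM in every library.

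Among FACITs 4 of 7 tested members rose (Col12a1, Col16a1, Col20a1 and Col22a1), with a class median of 1.03. Col12a1, which decorates type I fibrils and is known for tissue under load, was at 14.4, 33.9 and 23.6 FPKM in Model and at 6.87, 7.38 and 7.06 FPKM in Blank. All Model libraries lay above all Blank libraries (log2 fold change 1.69 ± 0.28 SE; adjusted p = 0.00190 in edgeR). Col16a1 was at 11.9, 17.9 and 16.4 FPKM in Model and at 6.19, 7.13 and 6.55 FPKM in Blank, with a log2 fold change of 1.16 ± 0.15 (SE; adjusted p = 6.49e-04 in edgeR). Col20a1 and Col22a1 had log2 fold changes of 1.03 and 1.42. Col14a1, the other abundant FACIT, was at 0.31 on that scale and was not called (adjusted p = 0.319 in edgeR), nor were the type IX chains Col9a2 (0.45) and Col9a3 (0.68). Col22a1 rested on 21 to 30 reads per library in Model and 5 to 13 in Blank, and was no longer called when the libraries with the most pancreatic transcripts (Model 1, Model 3 and CDs 1) were left out.

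Among beaded filament genes the 3 classical type VI chains rose and the 3 later-described chains Col6a4, Col6a5 and Col6a6 were not called. Col6a1 was at 96.9, 181 and 117 FPKM in Model and at 48.9, 52.9 and 48.8 FPKM in Blank, with a log2 fold change of 1.32 ± 0.19 (SE; adjusted p = 0.00113 in edgeR). Col6a2 was at 39.8, 81.95 and 49.9 FPKM in Model and at 21.2, 22.2 and 21.7 FPKM in Blank, with a log2 fold change of 1.33 ± 0.21 (SE; adjusted p = 0.00175 in edgeR). No Model library overlapped Blank for either chain. The log2 fold change was 1.57 for Col6a3, 0.28 for Col6a4 and 0.81 for Col6a5 (adjusted p = 0.0994 in edgeR). Col6a5 was higher in every Model library than in any Blank library. Col6a6 had a fitted log2 fold change of 2.93 ± 1.16 (SE; adjusted p = 0.0680 in edgeR). It rested on few reads, 3, 12 and 14 in Model and 0, 0 and 3 in Blank, and the groups overlapped. The Col6a1 to Col6a2 ratio was 2.33 ± 0.117 in Model and 2.31 ± 0.0688 in Blank (SD, n = 3 each), with overlapping groups. The share of beaded filament genes in collagen FPKM was 16.5% ± 1.85 in Model and 24.1% ± 0.683 in Blank (SD, n = 3 each).

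Col7a1 (ENSMUSG00000025650; chromosome 9, 108782654 to 108813943), the anchoring fibril collagen, was at 0.503, 1.83 and 1.69 FPKM in Model and at 0.193, 0.250 and 0.189 FPKM in Blank. These levels are low, resting on 72 to 375 reads per library in Model and 27 to 39 in Blank, and the groups did not overlap. The log2 fold change was 2.61 ± 0.46 (SE; adjusted p = 0.00261 in edgeR). Markers of squamous epithelium, a tissue in which Col7a1 is known, summed to 1.23, 2.23 and 0.869 FPKM in Model and to 0.843, 1.79 and 1.42 FPKM in Blank over 7 genes chosen after the Col7a1 values were seen, and the groups overlapped.

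Of the transmembrane collagens, Col13a1 and Col23a1 rose, and Col17a1 (log2 fold change 0.76) and Col25a1 (0.47) were not called. Col23a1 was at 5.28, 7.25 and 5.43 FPKM in Model and at 1.59, 1.64 and 2.04 FPKM in Blank (log2 fold change 1.71 ± 0.16 SE; adjusted p = 2.69e-04 in edgeR). Col13a1 was at 1.95, 2.24 and 1.88 FPKM in Model and at 0.769, 0.578 and 0.924 FPKM in Blank (log2 fold change 1.36 ± 0.22 SE; adjusted p = 0.00166 in edgeR). Neither gene overlapped between the groups.

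Outside the 6 classes, both multiplexins rose. Col18a1 (ENSMUSG00000001435; chromosome 10, 76888012 to 77002382, minus strand), a basement membrane proteoglycan whose end fragment is endostatin, was at 54.8, 127 and 89.9 FPKM in Model and at 7.67, 7.23 and 6.54 FPKM in Blank. It had the largest log2 fold change of the 39 members, 3.60 ± 0.32 (SE; adjusted p = 2.62e-04 in edgeR), and ranked 6th of the 44 genes by mean FPKM in Model and 13th in Blank. Its relative Col15a1, also of basement membranes, was at 17.1, 24.6 and 23.9 FPKM in Model and at 10.4, 9.76 and 7.63 FPKM in Blank (log2 fold change 1.18 ± 0.17 SE; adjusted p = 0.00102 in edgeR). The Col18a1 to Col15a1 ratio was 4.04 ± 1.01 in Model and 0.779 ± 0.0679 in Blank (SD, n = 3 each), without overlap. The span of Col18a1 overlaps Slc19a1 on the other strand, which had 1505 reads in all against 52425 for Col18a1. The short-chain collagens Col8a1 and Col8a2 were not called. Col8a1 was at 5.95, 8.65 and 8.10 FPKM in Model and at 7.80, 3.38 and 11.1 FPKM in Blank (log2 fold change -0.03 ± 0.36 SE; adjusted p = 0.961 in edgeR). Col8a2 had a log2 fold change of -0.22 (adjusted p = 0.692 in edgeR), and Col28a1 of 0.50 (adjusted p = 0.0641 in edgeR). Of the untested members, Col26a1 had 7 to 9 reads per library in Model and 0 to 5 in Blank, and Col10a1, of growth plate cartilage, had 2 to 4 in Model and 0 to 3 in Blank, with none in CDs. The span of Col10a1 overlaps Nt5dc1 on the other strand, which had 4122 reads in all against 14 for Col10a1.

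**Figure D4:**
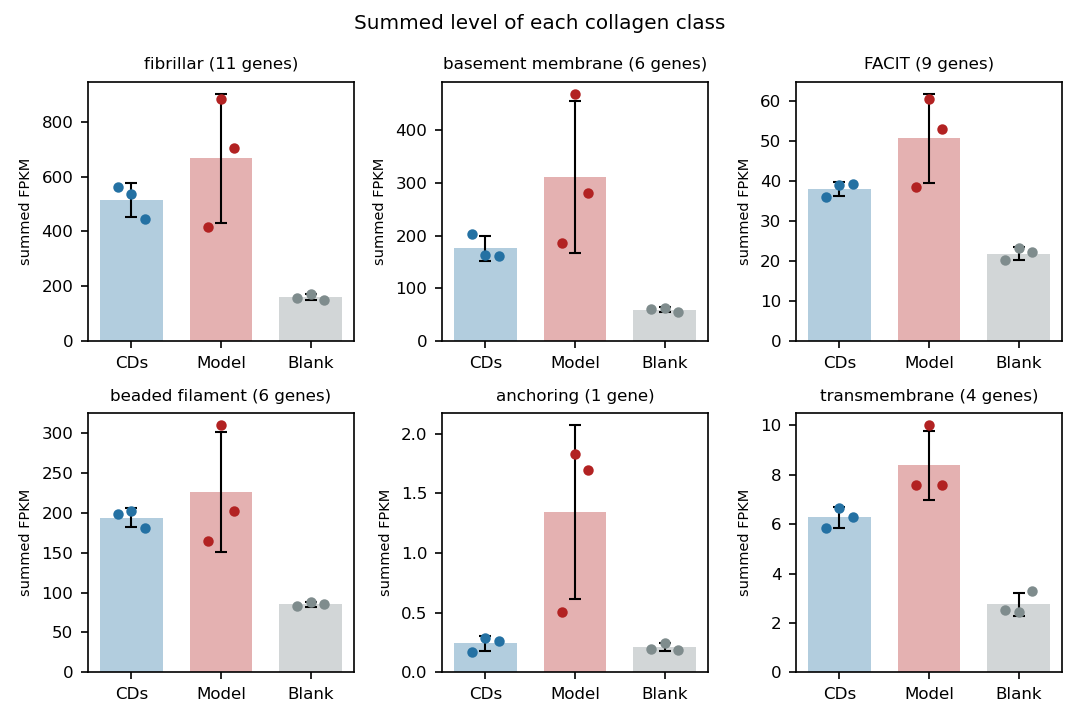
Summed FPKM of each of the 6 collagen classes, with CDs left of Model left of Blank; bars are means, error bars SD (n = 3 each) and points libraries. All 6 panels have every Model library above every Blank library, and the CDs and Model points of the fibrillar class overlap.

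The second comparison, CDs versus Model, concerns what carbon dots changed under DSS. No collagen gene was called (edgeR adjusted p under 0.05), and 0% of all genes were called in either direction. The smallest adjusted p was 0.891 in collagens. The CDs to Model log2 fold changes had a median of -0.29 over the 39 collagens and 0.02 over all genes, with 30 of 39 below 0, beside 44.8% of all genes. At an unadjusted p under 0.05, 10 collagens were lower and 2 higher, beside 3.75% and 1.53% of all genes. DESeq2 called 2 lower, Col7a1 and Col12a1, beside 0.302% of all genes, and limma called none. When the libraries richest in pancreatic transcripts (CDs 1, Model 1 and Model 3) were left out, edgeR called 12 collagens lower and 1 higher, beside 3.17% and 4.88% of all genes. The single Model library left there is Model 2, whose collagen sum was the highest of the 9, and the other groups supply the spread. The groups did not overlap for 7 tested members lower in CDs and 3 higher, beside 3.13% and 3.69% of all genes. Adipocyte markers, 7 genes that can come from fat attached to the colon, summed to 31.6 to 69.8 FPKM in CDs and 91.6 to 148 FPKM in Model, and all 7 had log2 fold changes below 0. The 12 fibroblast markers had a median log2 fold change of -0.12 with 7 below 0, none of them called. The fibroblast sums overlapped, at 963 to 1573 FPKM in CDs and 929 to 1165 FPKM in Model. Most of each sum came from Ly6a, at 1249, 876 and 637 FPKM in CDs and 754, 653 and 558 FPKM in Model. The 10 endothelial markers had a median log2 fold change of -0.18 with 9 below 0, none of them called. Their sums overlapped, at 85.8 to 115 FPKM in CDs and 89.6 to 129 FPKM in Model. Markers of 3 other tissues had mostly higher values in CDs, none of them called. The 6 mesothelial markers had a median log2 fold change of 1.03 with none below 0, and sums of 420 to 911 FPKM in CDs and 372 to 722 FPKM in Model. Krt19 made up nearly all of these sums, at 409, 685 and 893 FPKM in CDs and 716, 570 and 367 FPKM in Model. The 10 smooth muscle markers had a median of 0.50 with none below 0, and sums of 851 to 1966 FPKM in CDs and 897 to 1252 FPKM in Model. The 12 epithelial markers had a median of 0.25 with 1 below 0, and sums of 3304 to 6254 FPKM in CDs and 3019 to 5272 FPKM in Model. The part of these tissues in the collagen values was not tested.

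Col7a1 had the smallest p. It was at 0.175, 0.287 and 0.266 FPKM in CDs 1 to 3 (26 to 49 reads) and at 0.503, 1.83 and 1.69 FPKM in Model 1 to 3. Every CDs library was below every Model library, with a log2 fold change of -2.47 ± 0.45 (SE; adjusted p = 0.891 in edgeR; 2.99e-04 in DESeq2). Over the alternatives the adjusted p ran from 2.99e-04 to 1. In CDs versus Blank, Col7a1 had a log2 fold change of 0.13. The squamous markers summed to 2.67, 2.46 and 4.48 FPKM in CDs and to 1.23, 2.23 and 0.869 FPKM in Model, all 3 CDs libraries being above Model. The members differed in direction. Krt14 was at 1.14, 1.68 and 3.44 FPKM in CDs and 0.695, 0.485 and 0.260 FPKM in Model. Trp63, at very low levels throughout, was lower in CDs (0.0165 to 0.0287 FPKM) than in Model (0.0343 to 0.0622 FPKM). Its reads per library are not given here, and its direction is uncertain at such levels. The other listed genes overlapped. The part of this tissue in the Col7a1 values was not tested. Col12a1 was at 10.4, 9.14 and 13.9 FPKM in CDs, also below every Model library, with a log2 fold change of -1.11 ± 0.27 (SE; adjusted p = 0.891 in edgeR; 0.0342 in DESeq2). Col5a3 was at 6.78, 7.17 and 6.997 FPKM in CDs, just under Model 1, at a log2 fold change of -0.90 ± 0.28 (SE; adjusted p = 0.891 in edgeR; 0.218 in DESeq2).

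The type IV pair had lower means in CDs with overlapping groups. Col4a1 was at 121, 90.8 and 92.3 FPKM in CDs, and at 107, 290 and 168 FPKM in Model, a log2 fold change of -0.91 ± 0.29 (SE; adjusted p = 0.891 in edgeR). Col4a2 was at 74.4, 61.0 and 60.1 FPKM in CDs, and its log2 fold change was -0.85 ± 0.26 (SE; adjusted p = 0.891 in edgeR). Col18a1 was at 76.7, 48.7 and 40.1 FPKM in CDs (log2 fold change -0.74 ± 0.29 SE; adjusted p = 0.936 in edgeR). Col3a1 was at 315, 281 and 242 FPKM in CDs, inside the Model range, with a log2 fold change of -0.42 ± 0.24 (SE). Without Model 2 the log2 fold changes were -0.51 for Col4a1 and -0.50 for Col4a2. The Col4a1 to Col1a1 ratio was 1.18 ± 0.239 in CDs and 1.70 ± 0.335 in Model (SD, n = 3 each), and the groups did not overlap.

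Col6a5 and Col24a1, described after their values were seen, and Col6a6 were higher in the mean of CDs than of Model. Col6a5 was at 5.83, 9.83 and 2.81 FPKM in CDs and at 2.87, 3.32 and 3.55 FPKM in Model, with overlapping groups (log2 fold change 0.89 ± 0.36 SE; adjusted p = 0.936 in edgeR). Col24a1, a fibrillar chain, was at 0.800, 2.72 and 0.861 FPKM in CDs and at 0.623, 0.678 and 0.737 FPKM in Model, above it in all 3 libraries (log2 fold change 1.10 ± 0.44 SE; adjusted p = 0.936 in edgeR). Without CDs 2 the log2 fold change was 0.26. Col6a6 had 38, 42 and 7 reads in CDs 1 to 3, 3, 12 and 14 in Model 1 to 3 and 0, 0 and 3 in Blank 1 to 3. From the summed reads, scaled to library size, CDs over Model was 3.28 (exact 95% interval 2.14 to 5.19) and Model over Blank 8.87 (2.75 to 45.5), intervals that cover counting error only.

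**Figure D5:**
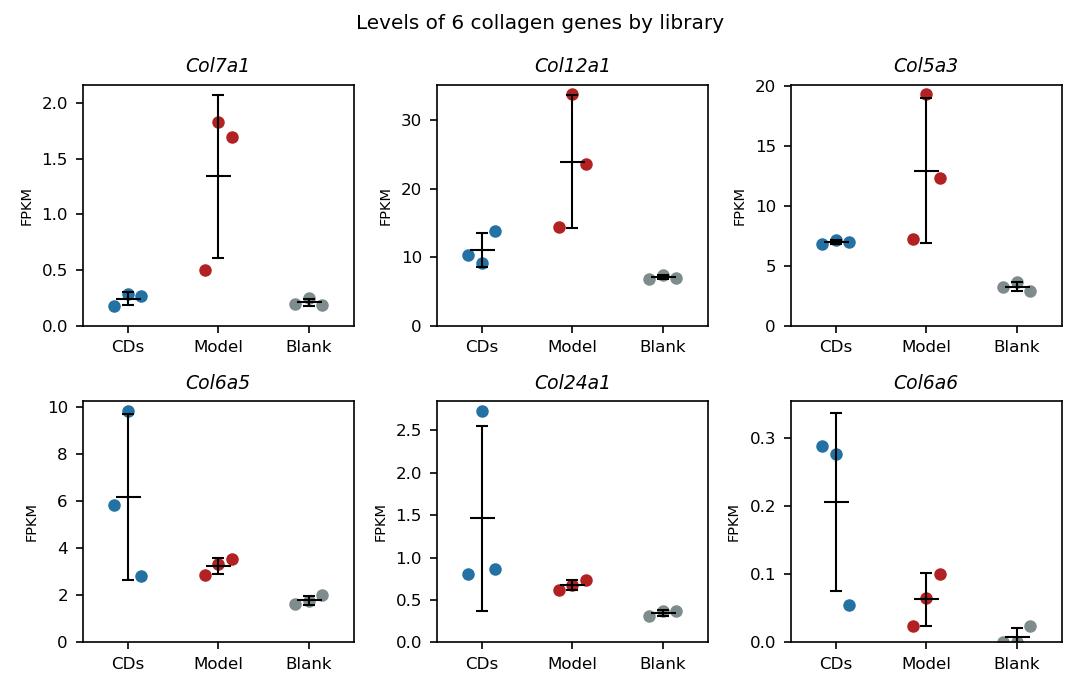
FPKM of 6 collagen genes by library, with CDs left of Model left of Blank; horizontal marks are means and bars SD (n = 3 each). Col7a1, Col12a1 and Col5a3 (top) lie lower in CDs than in any Model library, and CDs 2 holds the highest Col24a1 level, 2.72 FPKM.

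The third comparison, CDs versus Blank, shares its Blank libraries with the first and its CDs libraries with the second, so its values are given beside theirs and not as separate evidence. Of the 39 collagens 21 rose and none fell, with log2 fold changes of 0.60 to 4.58 (the last fitted for Col6a6, which had 3 reads in Blank), beside 21.8% of all genes called higher and 13.8% lower. The median was 0.98 over the 39 collagens and 0.01 over all genes. Taking both directions together, 35.6% of all genes were called. The groups did not overlap for 25 tested members higher in CDs and 1 lower, beside 31.3% and 20.1% of all genes. Col4a3 was the 1 member lower at an unadjusted p under 0.05, beside 20.4% of all genes, and DESeq2 called 21 higher and none lower, with 22 and none in limma, beside 23.5% of all genes higher in DESeq2 and 21.3% in limma with 1 added to FPKM. Without Blank 2 and Blank 3, the libraries with prostate transcripts, edgeR called 1 collagen higher, Col23a1, beside 2.31% of all genes. Fibrillar genes were called higher in 8 of 10, type IV in 2 of 6, FACIT in 2 of 7, beaded filament in 5 of 6, transmembrane in 2 of 4 and multiplexin in 2 of 2. The log2 fold changes were 1.70 ± 0.25 for Col3a1, 1.69 ± 0.29 for Col4a1, 2.85 ± 0.31 for Col18a1 and 1.70 ± 0.37 for Col6a5 (SE). Col12a1 was not called, at 0.58 ± 0.27 (SE; adjusted p = 0.126 in edgeR). Col24a1 was called at 1.997 ± 0.47 (SE), or 1.16 without CDs 2. Col5a3 was called at 1.01 ± 0.28 (SE; adjusted p = 0.0222 in edgeR) and was not called without Blank 1, without Blank 3, without CDs 2 or without CDs 3. Col6a6 rests on 3 reads in Blank, and CDs over Blank was 29.1 from the summed reads (exact 95% interval 9.64 to 144).

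Genes that make, trim, bind or cut collagen were followed as 6 lists. In Model versus Blank, procollagen hydroxylation, folding and export rose in 15 of 20 tested genes and fell in 2, with a median log2 fold change of 1.22. Of all genes 24.5% rose and 19.6% fell, with a median of -0.03, and the counts and medians of the other lists are to be read beside these. Plod2, a lysyl hydroxylase that prepares crosslinking, was at 17.8, 33.8 and 20.3 FPKM in Model and at 5.30, 5.23 and 4.71 FPKM in Blank (log2 fold change 2.17 ± 0.20 SE; adjusted p = 2.69e-04 in edgeR). Plod1 had a log2 fold change of 1.46 and the prolyl hydroxylase P3h3 of 1.63. The 2 that fell were Mia3, which exports procollagen from the endoplasmic reticulum (-0.38), and the transcription factor Creb3l1 (-1.73). Propeptide cleavage and crosslinking genes rose in 12 of 12, with a median of 1.79, among them the enhancer of propeptide cleavage Pcolce (1.10), the proteinases Tll1 (2.27) and Adamts2 (1.66) and the crosslinking enzyme Lox. Lox was at 15.6, 79.4 and 34.8 FPKM in Model and at 3.15, 3.18 and 3.12 FPKM in Blank, a log2 fold change of 3.70 ± 0.50 (SE; adjusted p = 8.02e-04 in edgeR).

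Fibril-associated proteoglycans and glycoproteins rose in 7 of 10 and fell in 1, the small proteoglycan Ogn (-0.75), with a median of 0.74. Fn1 (fibronectin) had a log2 fold change of 1.42, and the small proteoglycans Lum, Bgn and Dcn of 2.02, 1.61 and 2.79. Basement membrane partners rose in 12 of 16, with a median of 1.30, and the laminin chains Lama1, Lamb1 and Lama4 had log2 fold changes of 3.42, 1.92 and 1.89. Collagen receptors rose in 8 of 13, with a median of 0.71, among them the uptake receptor Mrc2 (2.30), Antxr1 (1.96) and the receptor kinase Ddr2 (1.59). Collagen-cleaving proteases and inhibitors rose in 10 of 10, with a median of 2.47. Mmp13, a collagenase, was at 71.1, 208 and 147 FPKM in Model and at 3.11, 4.62 and 3.05 FPKM in Blank (log2 fold change 5.23 ± 0.53 SE; adjusted p = 3.28e-04 in edgeR). The inhibitor Timp1 had a log2 fold change of 4.82 and the gelatinase Mmp2 of 2.55.

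In CDs versus Model no gene of the 6 lists was called by edgeR. The smallest p of each list belonged to Plod2 (log2 fold change -0.79), Lox (-1.40), Dcn (-0.94), Lama4 (-0.63), the integrin chain Itga1 (-0.32) and Mmp13 (-1.80). Mmp13 was at 71.0, 22.7 and 31.5 FPKM in CDs and at 71.1, 208 and 147 FPKM in Model. No CDs library was above a Model library, but CDs 1 and Model 1 were nearly equal (2736 and 2643 reads).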

How the data were processed

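RNA of mouse colon was sequenced in 9 libraries, grouped by the sample titles into CDs, Model and Blank with 3 each; the series description calls the replicates biological. The submitters' processing notes name HTSeq 0.9.1, HISAT2 2.1.0 and fastp 0.22.0; the genome build and strand setting were not given in the sources used here. Counts and FPKM per gene were deposited, per the file headers. The deposited FPKM equals the count divided by gene length and library total, so it is not scaled between libraries further.

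The counts went into edgeR 4.0.16 (quasi-likelihood F test, TMM scaling, two-sided p adjusted by Benjamini and Hochberg over 14921 genes passing the edgeR expression filter, R 4.3.3) in 1 fit of all 9 libraries. A gene is called where its adjusted p is under 0.05. The code was also run on counts simulated from the fit's own spread, with few genes changed. These data differ from that setting, so the run does not bear on the calls given here. DESeq2 1.42.0, limma 3.58.1 on log2(FPKM + 1) and log2(FPKM + 0.1), other scaling, no filter, a replicate block, each library left out, and libraries with transcripts of other organs left out were alternatives. Ratios and sums of FPKM were given without a test.

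The members and gene lists were chosen with earlier results of these data known. Genes given in full were the 2 highest of each class by mean FPKM, the 5 highest and 5 lowest log2 fold changes in Model versus Blank, the 3 smallest p in CDs versus Model and, per list, 3 genes by p in Model versus Blank plus 1 in CDs versus Model; others were chosen after their values were seen.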

Additional observations from a re-analysis of the deposited data

How the results depend on the processing

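All 21 collagens called higher in Model versus Blank remained called when any 1 library was left out (21 to 23 called), and the other alternatives gave 21 to 24, except that without Blank 2 and Blank 3 there were 15, of which 14 were among the 21, where the lone Blank library is assumed to vary as the rest do. Calls lower in Model numbered 1 with DESeq2 (Col4a6) and 0 to 1 with 1 library left out. Over all genes they numbered 3269 with DESeq2 and 1478 to 3561 with 1 library left out. In CDs versus Model, DESeq2 gave 2 lower (45 over all genes). Without Model 1, Model 3 and CDs 1 there were 12 lower and 1 higher, and over all 15411 genes 489 lower and 752 higher, with Model 2 as the single Model library. In CDs versus Blank, leaving out 1 library gave 20 to 22 higher and 0 to 1 lower, and without Blank 2 and Blank 3 there was 1 higher, while the calls higher over all genes numbered 357, against 3256 with all libraries. With 1 library left out, the calls gained in Model versus Blank were Col11a1 (without Model 1), Col14a1 (Model 2), Col24a1 (CDs 2), Col25a1 (Blank 3), Col28a1 (CDs 1), Col6a5 (CDs 2 or CDs 3), Col6a6 (CDs 3, Model 1 or Blank 3) and Col4a6 lower (Blank 1). Libraries of the same replicate number showed no steady correlation (-0.37 to 0.21, with 0.063 to 0.175 between Blank and CDs). With 3 libraries per group these values cannot exclude a pairing. With the replicate number as a block, 22 collagens were called higher in Model versus Blank, 21 in CDs versus Blank and 0 in CDs versus Model. Over all 14921 genes the block called 3456, 2974 and 0 higher, in the same order. With 1 library left out, 15091 to 15157 genes were tested. Of these, 2907 to 3898 were called higher in Model versus Blank and 2324 to 3311 in CDs versus Blank. Alternatives that kept all libraries of both groups called 3456 to 3977 genes higher in Model versus Blank.

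Among the genes given in full the direction turned for the following log2 fold changes, none of them called. For Model versus Blank, Col8a1 was at 0.093 with the block, 0.13 and 0.17 in limma with 1 and 0.1 added, 0.10 without Model 1, Model 3 and CDs 1 and -0.36 to 0.38 with 1 library left out, and Col4a5 was at -0.19 without those 3 and -0.046 to 0.093 with 1 left out. For CDs versus Model, Col6a1 ran from -0.40 to 0.017 and Col28a1 from -0.17 to 0.16 with 1 left out, and without those 3 Col28a1 was at 0.081 and Col4a3 at 0.17. For CDs versus Blank, Col7a1 ran from -0.017 to 0.35, Col8a2 from -0.082 to 0.56 and Col4a6 from -0.65 to 0.37 with 1 left out, and Col4a6 was at 0.60 without Blank 2 and Blank 3. The causes were not tested. Counting error is largest for members with few reads, such as Col9a3 with 5 to 19 per library.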
